A study of Homo sapiens with 6 samples.

Results

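The genes described here are 38 components of the NF-kappaB system and the tumour necrosis factor (TNF) superfamily, chosen by name and followed through all array probes annotated to them. They comprise 5 transcription factor subunits, 7 inhibitors, 10 kinases, TRAF adaptors and partners, 5 TNF ligands, 9 TNF receptors and 2 target genes. Of the 38 members, 36 had at least 1 named probe, 53 probes in all. The values of TRAF2 and BIRC3 were not analysed here. TNFRSF1A and TNFRSF8 each had 1 probe, which was detected on 0 and 1 of the 6 arrays, so 34 members were tested among 10832 genes.

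Samples were Mec-1 cells, an established line of human B cells that resembles chronic lymphocytic leukaemia (CLL), grown in culture. On 3 Illumina arrays the RNA came from cells transfected with a short hairpin RNA (shRNA) against SLAMF1, which encodes the lymphocyte receptor CD150, and on 3 it came from cells given a scrambled shRNA. All samples share the parental line, which is described as constitutively positive for SLAMF1, and the silenced cells are called a variant of it. Whether the 3 replicates of a kind are clones or repeat cultures of 1 transfected population is not given in the sources used here, so the p-values reflect the variation among these samples, which may be technical.

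SLAMF1 itself had a log2 level of 8.70, 8.44 and 8.64 on the arrays labelled SLAMF1 shRNA, against 8.26, 8.38 and 8.01 on the control arrays. This transcript was thus not lower where its silencing was labelled (log2 difference 0.38, SE 0.18, limma adjusted p = 0.153). The groups did not overlap, and without SLAMF1 shRNA replicate 2 the gene passed as higher (0.46, adjusted p = 0.0489). The position of the SLAMF1 probe with respect to the sequence the hairpin targets was not examined, and the groups below are named by their labels. Replicate 2 of the arrays labelled SLAMF1 shRNA stood apart: across tested genes it correlated with its 2 companions at 0.928 and 0.942, whereas they correlated with each other at 0.994 and the control arrays with one another at 0.981 to 0.992. It also had the fewest detected probes, 17192 against 18900 to 19586 on the others. Members whose call or size it decides are therefore given with and without it. Control arrays occupied positions 1 to 3 of the chip and the others positions 4 to 6, and the effects of position and of group cannot be told apart. Of 11 B cell markers, 8 were detected on all 6 arrays, among them CD79A, CD79B and MS4A1, and PAX5 on 1. Summed B cell marker levels were 8075 to 9483 on the arrays labelled SLAMF1 shRNA, against 3130 to 3769 on control arrays, with 5 of 9 tested markers higher and 2 lower. No gene of the T cell, NK cell, myeloid or stromal lists was detected on all 6 arrays, and CD3D, CD3E, KLRD1, MPO and COL3A1 were detected on none. Their summed levels on the arrays labelled SLAMF1 shRNA and then on control arrays were 122 to 131 and 133 to 142 for T cells, 147 to 299 and 105 to 116 for NK cells, 150 to 185 and 149 to 161 for myeloid cells and 99.3 to 101 and 94.9 to 105 for stromal cells. NKG7 and CSF1R passed as higher and CD247 as lower. The part of these shifts in the results below was not tested.

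NF-kappaB factors are dimers of Rel family subunits that inhibitory IkappaB proteins hold in the cytoplasm. Receptors of the TNF family release them through TRAF adaptors and the IkappaB kinase complex, and in an alternative arm through the kinase encoded by MAP3K14. Many inhibitors and ligands of the system are themselves transcribed by NF-kappaB, and in B cells and CLL the system carries survival signals from receptors such as CD40 and TNFRSF13C.

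Promoters show where NF-kappaB could act on these genes, so windows of 250 bases before to 50 after each start site (RefSeq, GRCh38.p14) were searched on both strands, overlapping matches included, for the 10-base kappaB consensus. Of the 32 members with a window, 16 held at least 1 match (50%), as did 13.3% of all 27305 genes in the table. CD40, CD70, IKBKB, NFKBIE, RELB and TNFRSF13C are the members with no window. The members were picked as parts of this system, so their share is a description. Matches fell on 3 of 4 higher, 3 of 7 lower and 9 of 17 uncalled tested members with a window. Shown here, with matches in capitals, are the 250 bases upstream of 5 genes on which the results turn and a short stretch of LTA. They are TNFAIP3 (chr6:137867009-137867258, plus strand), NFKBIZ (chr3:101827740-101827989, plus), NFKBIA (chr14:35404750-35404999, minus), TNF (chr6:31575315-31575564, plus), EBI3 (chr19:4229273-4229522, plus) and LTA (chr6:31572180-31572200, plus).
TNFAIP3: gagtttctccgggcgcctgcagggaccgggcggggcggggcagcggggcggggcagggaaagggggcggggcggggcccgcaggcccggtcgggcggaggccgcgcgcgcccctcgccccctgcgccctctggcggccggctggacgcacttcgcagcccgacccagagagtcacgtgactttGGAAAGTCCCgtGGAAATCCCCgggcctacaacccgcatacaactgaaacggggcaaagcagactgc
NFKBIZ: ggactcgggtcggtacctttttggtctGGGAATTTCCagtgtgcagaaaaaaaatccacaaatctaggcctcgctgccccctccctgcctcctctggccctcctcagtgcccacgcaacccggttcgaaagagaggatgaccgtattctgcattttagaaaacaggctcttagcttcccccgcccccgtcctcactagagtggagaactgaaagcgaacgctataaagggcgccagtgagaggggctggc
NFKBIA: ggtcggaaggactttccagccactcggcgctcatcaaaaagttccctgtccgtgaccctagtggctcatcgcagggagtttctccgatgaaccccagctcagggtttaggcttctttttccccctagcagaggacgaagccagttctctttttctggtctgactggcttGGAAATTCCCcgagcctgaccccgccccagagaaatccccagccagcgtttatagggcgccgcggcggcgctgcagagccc
TNF: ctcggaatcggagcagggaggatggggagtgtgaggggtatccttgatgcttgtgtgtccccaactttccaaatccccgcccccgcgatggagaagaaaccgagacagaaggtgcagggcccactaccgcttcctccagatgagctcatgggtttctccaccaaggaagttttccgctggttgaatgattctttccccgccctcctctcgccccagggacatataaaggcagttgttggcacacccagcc
EBI3: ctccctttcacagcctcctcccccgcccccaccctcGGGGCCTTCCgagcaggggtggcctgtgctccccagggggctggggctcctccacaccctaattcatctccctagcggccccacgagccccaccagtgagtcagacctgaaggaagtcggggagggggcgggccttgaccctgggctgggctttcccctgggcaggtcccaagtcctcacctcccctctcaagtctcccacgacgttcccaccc
LTA: gccctGGGGGCTTCCCcgggc
Counted from the start site, TNFAIP3 carried 2 matches on the opposite strand, beginning at -67 and -55. NFKBIZ had 1 at -223 on its own strand in the window shown, and others in a second window, NFKBIA 1 at -81 on the opposite strand, and EBI3 1 at -214 on its own. In LTA, overlapping matches began at -104 and -103 in the second of its 2 windows, and the first held none. The TNF window held no match to these letters, which says nothing about binding outside or beside the consensus.

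Members were called in both directions. In the arrays labelled SLAMF1 shRNA 5 were higher and 8 lower (limma with Benjamini-Hochberg adjustment over all 10832 genes, threshold 0.05), which is 38.2% of the members, against 24.6% of all genes tested. TNFRSF13C, 1 of the 5 higher, passed the detection filter only through the arrays labelled SLAMF1 shRNA, so its call is no support for that count. The members were chosen with earlier results of these data known, so their share of calls is only a description. For single directions the background was 12.9% higher and 11.7% lower. The median log2 fold change of the members was 0.20 and that of all genes 0.02. In 19 members (55.9%) the groups did not overlap, against 45.7% of all genes. Of those, 10 were higher and 9 lower, where the background was 23.7% and 22%. All 13 calls were kept without replicate 2 of the arrays labelled SLAMF1 shRNA, where 7 members were higher and 9 lower, 47.1% of members against 36.9% of all genes. By class, calls fell on 0 of 5 subunits, 3 of 7 inhibitors, 2 of 8 kinases and TRAFs, 2 of 5 ligands, 4 of 7 receptors and both target genes. In bulk RNA, fewer cells that express a gene and less of its RNA per cell cannot be told apart.

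**Figure D1:**
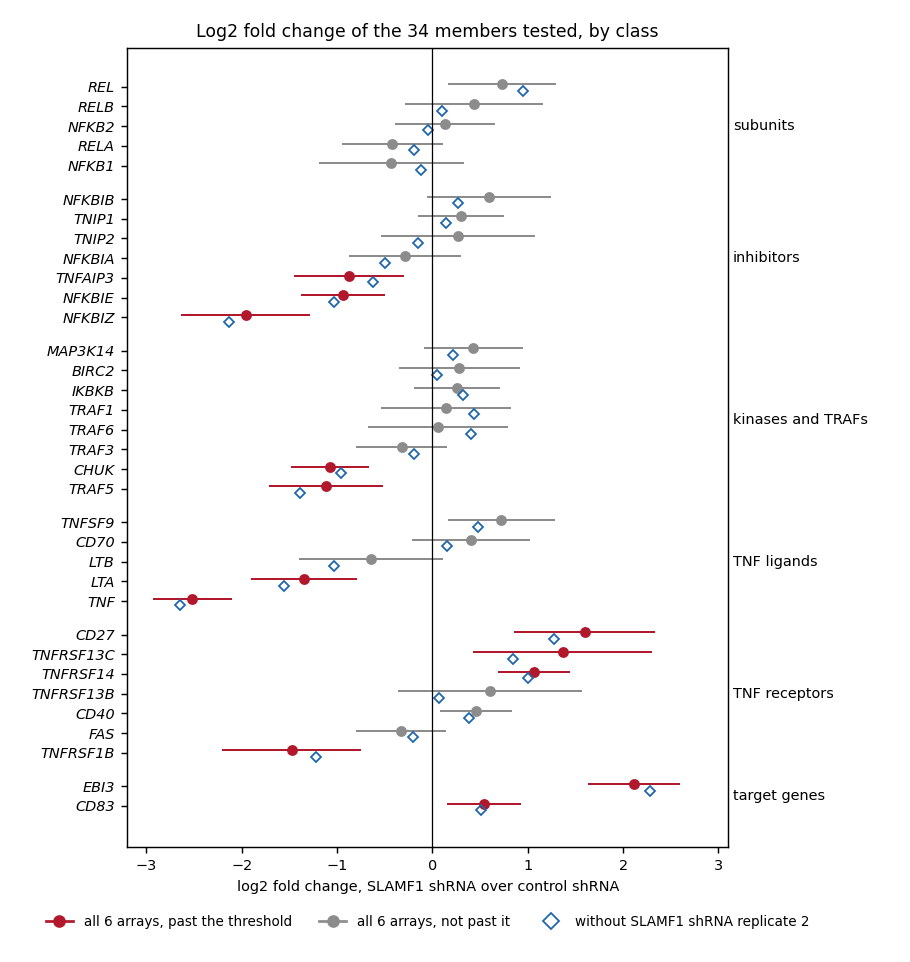
Log2 fold changes (horizontal axis, arrays labelled SLAMF1 shRNA over control arrays) of the 34 tested members by class. Filled circles and bars are the estimate and 95% interval from all 6 arrays, red where the adjusted p passed 0.05, and open diamonds are the estimate without SLAMF1 shRNA replicate 2. TNF at -2.52 and EBI3 at 2.11 mark the extremes, and TNFRSF13C is plotted against control levels that were not above background.

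None of the 5 subunits passed the threshold. REL, which encodes the c-Rel subunit prominent in B cells, had the largest difference. Its log2 level was 6.48, 5.94 and 6.76 in the arrays labelled SLAMF1 shRNA, against 5.62, 5.90 and 5.49 in control arrays. The groups did not overlap, though replicate 2 of the first set lay only just above the highest control (log2 fold change 0.73, SE 0.24, adjusted p = 0.0621). Without that replicate REL passed as higher (0.95, adjusted p = 0.00127). A second REL probe gave 0.83 (SE 0.24) and passed when each probe was tested (adjusted p = 0.042, with 22.3% of all probes called). So did the mean of both probes (0.78, adjusted p = 0.0408). In 15 of 18 alternative settings REL did not pass, and with median centring its difference was 0.51 (adjusted p = 0.376). RELA, the main transactivating subunit of the canonical dimer, read 5.67, 4.99 and 5.67 against 5.71, 5.93 and 5.95 in control arrays. Its groups did not overlap either, but the difference was -0.42 (SE 0.23, adjusted p = 0.212) and -0.19 without replicate 2. NFKB1, the precursor of its usual partner, gave -0.43 with a 95% interval from -1.18 to 0.32, and -0.12 without replicate 2. For the alternative arm, RELB gave 0.43 (interval -0.28 to 1.14) and its precursor partner NFKB2 gave 0.13 (interval -0.38 to 0.65) by 1 probe and 0.12 by another. RELB was at 7.17 in replicate 2 and 6.16 and 6.17 in its companions, and without replicate 2 its difference was 0.10.

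Inhibitors were split between those that fell and those that did not pass. NFKBIZ encodes a nuclear IkappaB protein that modulates transcription of a subset of target genes. Its log2 level was 5.55, 6.09 and 5.57 in the arrays labelled SLAMF1 shRNA, against 8.26, 7.59 and 7.24 in control arrays. Every control array lay more than 1 log2 unit above every array of the other set, and NFKBIZ was lower by 3.89-fold (difference -1.96 on the log2 scale, SE 0.29, adjusted p = 0.00251). A second NFKBIZ probe was detected on 0 arrays. NFKBIE, the cytoplasmic inhibitor IkappaB epsilon, read 7.20, 7.55 and 7.32 against 8.05, 8.47 and 8.35 in control arrays. It was 1.91-fold lower (-0.94, SE 0.19, adjusted p = 0.00956), with no overlap between groups. TNFAIP3 encodes the ubiquitin-editing enzyme that ends signalling downstream of TNF receptors. It read 7.04, 6.26 and 6.97, against 7.39, 7.80 and 7.71 in control arrays. The groups did not overlap and the difference was -0.88 (SE 0.25, adjusted p = 0.0356). TNFAIP3 no longer passed without SLAMF1 shRNA replicate 3 (adjusted p = 0.0601) or any 1 control array (0.0626, 0.127 and 0.129). Nor did it with median centring (0.0828), with dim probes kept (0.0795) or with a block for replicate number (0.0732). NFKBIE missed the threshold when control replicate 3 was left out (adjusted p = 0.053).

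NFKBIA, the inhibitor IkappaB alpha and a textbook feedback target, did not pass. It read 10.29, 11.01 and 10.47, against 10.52, 11.13 and 10.97 in control arrays, and the groups overlapped (log2 fold change -0.29, interval -0.87 to 0.29). Without replicate 2 the value was -0.50 (adjusted p = 0.0617). NFKBIB, the inhibitor IkappaB beta, had 2 probes that pointed in opposite directions. By the brighter probe it read 6.78, 7.75 and 6.78, against 6.63, 6.47 and 6.43 in control arrays. The difference was 0.59 (SE 0.28), and 0.27 without replicate 2. The other gave 5.72, 5.53 and 5.80, against 6.13, 6.03 and 6.10 in control arrays, a difference of -0.41 (SE 0.16). Neither probe overlapped between groups and neither passed (adjusted p = 0.167 and 0.108 over probes), so no direction is given for NFKBIB. TNIP1 and TNIP2, partners of the TNFAIP3 protein, gave 0.30 and 0.27. TNIP2 turned to -0.15 without replicate 2, in which it read 6.92 against 5.53 and 5.80 in its companions.

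**Figure D2:**
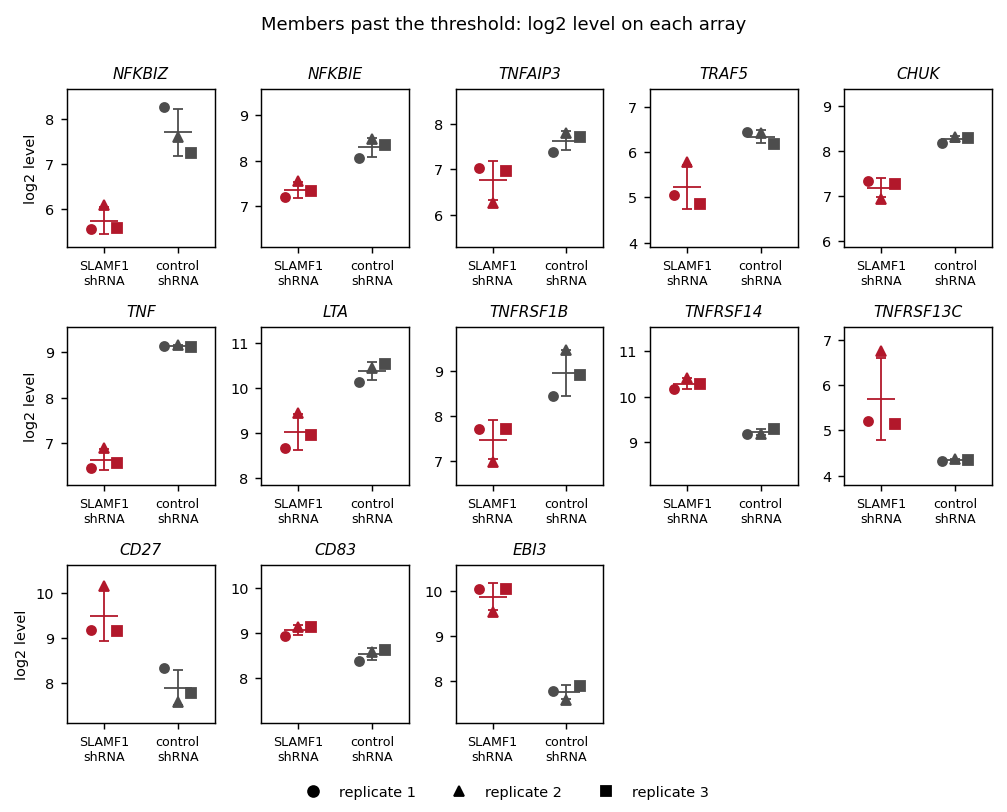
Log2 levels (vertical axis) of the 13 members past the threshold on each of the 6 arrays, SLAMF1 shRNA in red left of control in grey, with group mean and SD (n = 3). Symbols give the replicate number, and no panel shows overlap between groups. Replicate 2 (triangle) lies away from its companions for TNFRSF13C, CD27 and TRAF5.

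Among kinases, CHUK fell while IKBKB did not pass. CHUK encodes the kinase IKK alpha, which the alternative arm depends on. It read 7.34, 6.94 and 7.27 in the arrays labelled SLAMF1 shRNA, against 8.18, 8.30 and 8.29 in control arrays. The control arrays were close together (SD 0.06) and above all the others, and CHUK was lower by 2.11-fold (difference -1.08 on the log2 scale, SE 0.17, adjusted p = 0.00391). IKBKB, the IKK beta kinase of the canonical arm, gave 0.26 (interval -0.18 to 0.69). MAP3K14, the NF-kappaB inducing kinase upstream of CHUK, gave 0.43 (interval -0.08 to 0.94), and 0.22 without SLAMF1 shRNA replicate 2.

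TRAF5, an adaptor for receptors such as CD27 and CD40, was lower. Its level was 5.06, 5.78 and 4.86, against 6.44, 6.43 and 6.17 in control arrays, with no overlap (log2 fold change -1.11, SE 0.25, adjusted p = 0.0166). A second probe gave -0.65 (SE 0.19), and 3 further TRAF5 probes were detected on 0 or 1 array. The call was lost without SLAMF1 shRNA replicate 3 (adjusted p = 0.0584) or any 1 control array (0.068, 0.0685 and 0.0526). TRAF1, TRAF3 and TRAF6 gave 0.14, -0.32 and 0.06. TRAF3, which holds MAP3K14 protein low in resting cells, had an interval from -0.79 to 0.14. TRAF6 read 4.82 in replicate 2 and 5.99 and 5.74 in its companions, and its sign turned under 4 alternatives. A second TRAF6 probe gave 0.34 (SE 0.17), with no overlap between groups, and did not pass (adjusted p = 0.196 over probes). On that probe replicate 2 was the highest of its set, at 5.25 against 5.13 and 4.98. BIRC2, an inhibitor of apoptosis protein that acts with the TRAFs, gave 0.28 by 1 probe and -0.25 by another, neither past the threshold. Without SLAMF1 shRNA replicate 2 the first of these probes gave 0.045.

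**Figure D3:**
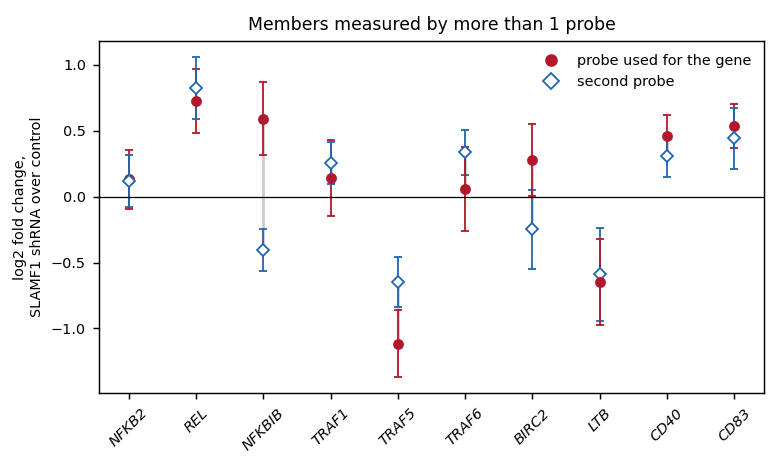
Log2 fold change with standard error for the 10 members measured by more than 1 probe that passed the detection filter, arrays labelled SLAMF1 shRNA over control arrays. Red circles are the probe used for the gene and open blue diamonds the second probe. Probes differ in sign for NFKBIB (0.59 and -0.41) and BIRC2 (0.28 and -0.25).

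TNF had the largest change of all members. TNF encodes the inflammatory cytokine that gives the family its name. Its log2 level was 6.45, 6.88 and 6.56 in the arrays labelled SLAMF1 shRNA, against 9.14, 9.17 and 9.12 in control arrays. The control arrays were close together (SD 0.03) and the groups lay more than 2 log2 units apart, which made TNF lower by 5.73-fold (difference -2.52 on the log2 scale, SE 0.17, adjusted p = 7.58e-05). LTA, which encodes the related ligand lymphotoxin alpha, fell as well. It read 8.66, 9.44 and 8.96, against 10.14, 10.45 and 10.53 in control arrays (-1.35, SE 0.23, adjusted p = 0.00542). Both calls held in all 18 alternatives. LTB, the membrane partner of lymphotoxin alpha, did not pass, and 1 array set it apart from LTA. It read 8.12, 9.34 and 8.25, against 9.20, 9.42 and 9.03 in control arrays, so that replicate 2 lay among the controls and the other arrays below them. The difference was -0.65 (SE 0.32, adjusted p = 0.18), and -1.03 without replicate 2 (adjusted p = 0.000533). Median centring also made it pass (-0.88, adjusted p = 0.0464). A second LTB probe gave -0.59 and the same order of arrays within the SLAMF1 shRNA set, with replicate 2 the highest at 7.02.

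LTA, TNF and LTB are direct neighbours in the class III part of the major histocompatibility complex on chromosome 6. TNF and LTA were lower and LTB did not pass. The 24 tested genes nearest to TNF had a median log2 fold change of 0.31, with 5 higher and 2 lower. Over all genes tested, 12.9% were higher and 11.7% lower, so the count of lower neighbours does not set this stretch apart. TNF ranked lowest of these 25. Besides LTA the other lower neighbour was AIF1 (-2.14, SE 0.34), a macrophage-associated gene singled out after its values were seen. NFKBIL1, next to LTA on the other side, gave 1.03 (adjusted p = 0.0719). Likewise, NFKBIE, NFKBIZ and TNFRSF1B each ranked lowest, and CD27 and EBI3 highest, among themselves and their own 24 nearest tested genes, whose median log2 fold changes were between -0.06 and 0.32. The other called members were less extreme by that measure. CHUK and TRAF5 ranked 2 from the lowest, LTA 3 and TNFAIP3 4, while TNFRSF14 and TNFRSF13C ranked 24 of 25 and CD83 18. All these ranks, that of TNF included, use the same fold changes that gave the calls. They are a description and no separate support for the calls.

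**Figure D4:**
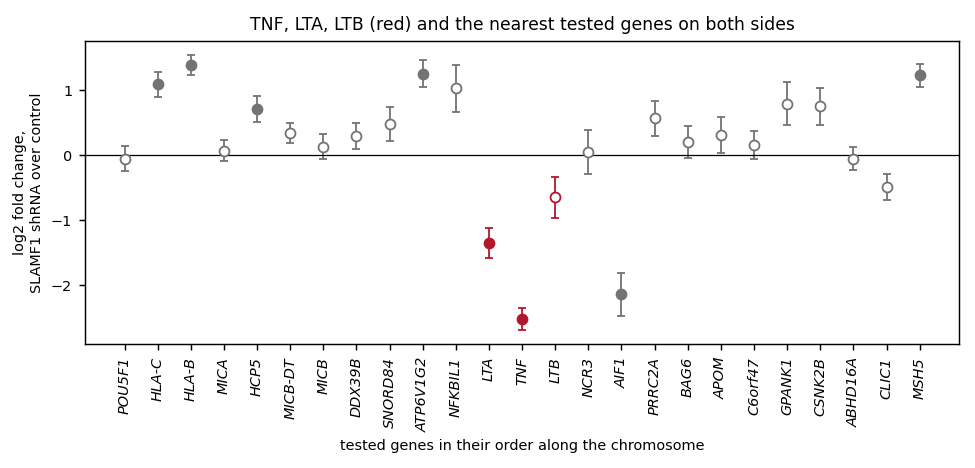
Log2 fold change with standard error (vertical axis, arrays labelled SLAMF1 shRNA over control arrays) of TNF and the 12 nearest tested genes on each side, in chromosomal order. TNF, LTA and LTB are red, other genes grey, and filled symbols passed the threshold. TNF at -2.52, AIF1 at -2.14 and LTA at -1.35 lie lowest.

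TNFSF9, the ligand of the costimulatory receptor TNFRSF9, and CD70, the ligand of CD27, did not pass. TNFSF9 read 6.64, 7.33 and 6.54, against 5.95, 6.23 and 6.18 in control arrays. Its groups did not overlap (log2 fold change 0.72, SE 0.24, adjusted p = 0.0617), and it passed as higher without replicate 2 (0.47, adjusted p = 0.0365) and with cyclic loess (0.74, adjusted p = 0.042). CD70 gave 0.41 (interval -0.20 to 1.02) and 0.15 without replicate 2.

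Receptors were called both ways, with 3 higher and 1 lower of 7 tested, or 2 higher when TNFRSF13C, undetected on control arrays, is set aside. CD27, a receptor of memory and leukaemic B cells that binds CD70, read 9.17, 10.14 and 9.16 in the arrays labelled SLAMF1 shRNA, against 8.33, 7.57 and 7.78 in control arrays. It was 3.02-fold higher (log2 fold change 1.60, SE 0.32, adjusted p = 0.0094), and 1.27 on the log2 scale without replicate 2, its highest array. TNFRSF14, the receptor for the ligand LIGHT and for BTLA, read 10.16, 10.40 and 10.28, against 9.18, 9.18 and 9.28 in control arrays. Its groups were tight and 1.07 apart (SE 0.16, adjusted p = 0.00263), a 2.09-fold higher level. TNFRSF13C, the receptor for the B cell survival factor BAFF, was detected on the 3 arrays labelled SLAMF1 shRNA and on 0 control arrays. Levels were 5.21, 6.76 and 5.15, against 4.33, 4.36 and 4.34 in control arrays, where they were not above background. By the mean of all 3 arrays it was at least 2.34-fold higher, a bound set against the lowest signal of detected probes on each control array. That mean includes replicate 2, its highest array, so the bound does not hold for the companions alone. The log2 fold change was 1.37 with replicate 2 and 0.84 without it. Because TNFRSF13C passed the detection filter only through the group where it is high, its adjusted p of 0.0415 is given as a description. The TNFRSF13C call was lost when background was left in (adjusted p = 0.142), with an offset of 50 (0.118), in the other deposited table (0.142) or when dim probes were kept (0.129), and without any 1 control array (0.126, 0.118 and 0.13).

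TNFRSF1B, the TNF receptor of lymphocytes that signals through TRAF adaptors, was lower. It read 7.71, 6.97 and 7.71, against 8.44, 9.46 and 8.91 in control arrays, with no overlap (log2 fold change -1.47, SE 0.31, adjusted p = 0.0119). When control replicate 3 was left out, neither CD27 (adjusted p = 0.0516) nor TNFRSF1B (0.0541) passed. TNFRSF1A, the broadly expressed TNF receptor, was detected on 0 arrays and TNFRSF8, the CD30 receptor of activated lymphocytes, on 1. CD40, which receives help from T cells, read 6.94, 7.19 and 7.0, against 6.53, 6.55 and 6.67 in control arrays. Those groups did not overlap, yet the difference of 0.46 (SE 0.16) did not pass (adjusted p = 0.0721). CD40 did pass as higher when background was left in (adjusted p = 0.0433) and with an offset of 50 (0.0449). It also passed when dim probes were kept (0.0283) and with array weights (0.0034). The other deposited table (0.0427) matches the quantile-normalized signal with background left in, so it is not a separate check. In 13 of 18 alternatives CD40 did not pass, and with median centring the difference was 0.20 (adjusted p = 0.534). TNFRSF13B, the receptor TACI for BAFF and APRIL, rested on replicate 2. It read 8.26, 9.87 and 8.24, against 8.27, 8.22 and 8.07 in control arrays, and its difference of 0.60 (SE 0.41) was 0.06 without that array. FAS, the death receptor, gave -0.33 (interval -0.79 to 0.13).

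Both target genes were higher. EBI3, a secreted subunit of interleukins first described in virus-infected B cells, read 10.04, 9.53 and 10.06 in the arrays labelled SLAMF1 shRNA, against 7.78, 7.59 and 7.91 in control arrays. The groups lay more than 1.5 log2 units apart, a 4.33-fold higher level (log2 fold change 2.11, SE 0.20, adjusted p = 0.000338), in the opposite direction to TNF and LTA. CD83, a surface marker of activated B cells, read 8.94, 9.12 and 9.13, against 8.37, 8.57 and 8.63 in control arrays. Its groups did not overlap and the difference was 0.54 (SE 0.16, adjusted p = 0.0473). A second probe gave 0.44 (SE 0.23), with overlapping groups, and the CD83 call was lost in 11 of 18 alternatives.

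**Figure D5:**
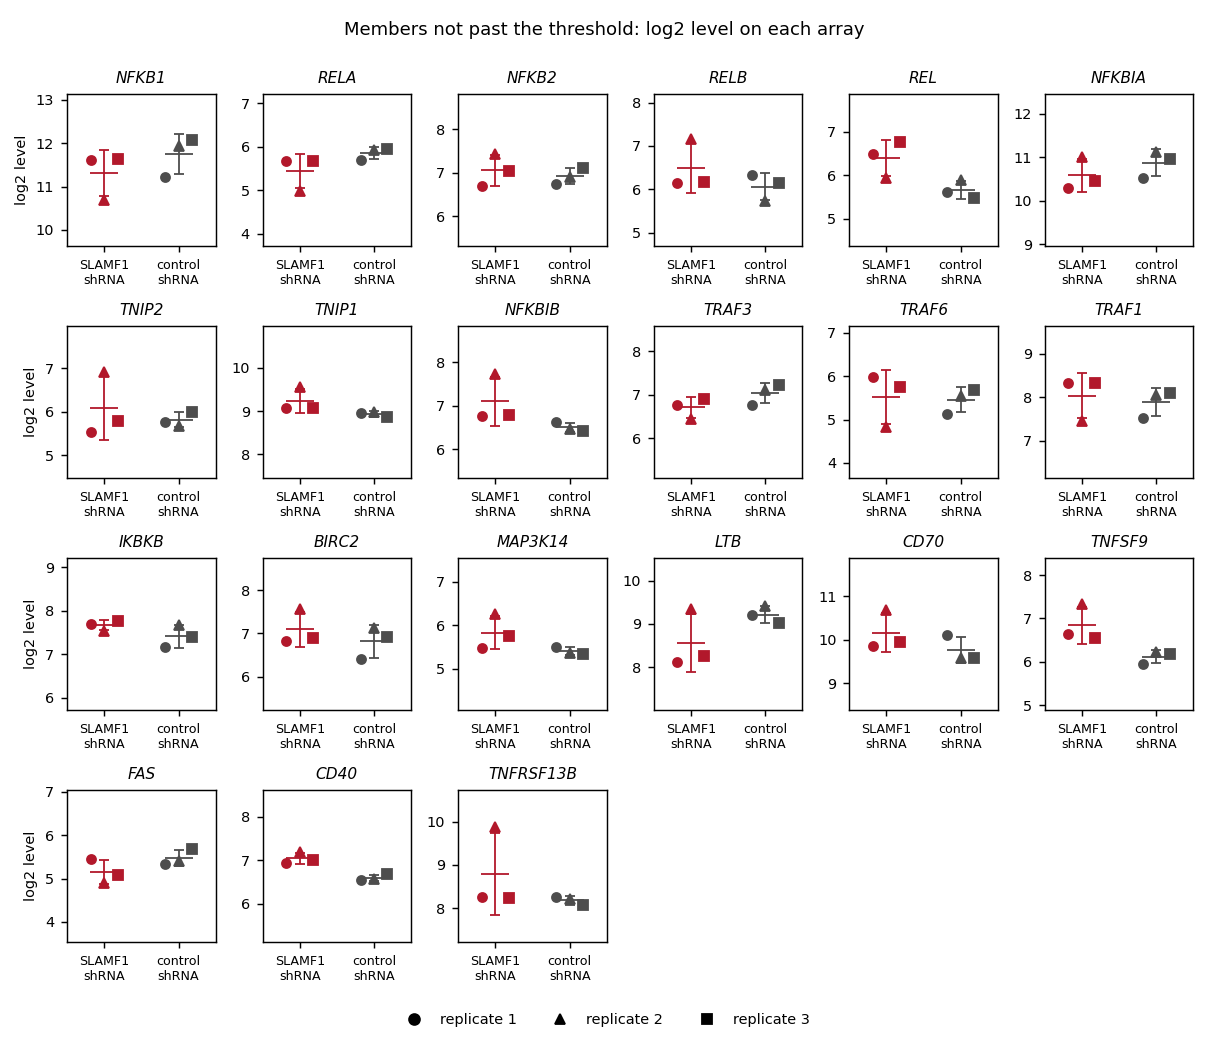
Log2 levels (vertical axis) of the 21 tested members not past the threshold on each array, SLAMF1 shRNA in red left of control in grey, with group mean and SD (n = 3). Replicate 2 (triangle) is far above its companions for TNFRSF13B, TNIP2 and LTB and far below them for TRAF6.

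The position of replicate 2 recurred through the members. Within the SLAMF1 shRNA set it was the highest of the 3 arrays in 21 members and the lowest in 12. It lay more than 1 log2 unit from the mean of its companions in 6 of 34 members (17.6%), against 15.3% of all genes tested. In 5 of them it was higher: TNFRSF13B (1.62), TNFRSF13C (1.57), TNIP2 (1.26), LTB (1.15) and RELB (1.01). TRAF6 was lower by that measure (-1.04) on the probe used for the gene, but not on its second probe.

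Of 30 further signalling parts of NF-kappaB, listed like those below with earlier results of these data known, 26 were tested. Of these, 3 were higher and 3 lower, 20 did not pass, and the median log2 fold change was 0.12. For each of the 4 further lists the background is again 24.6% of all genes called, 12.9% higher and 11.7% lower. Without SLAMF1 shRNA replicate 2 the signalling parts had 6 higher and 3 lower (median 0.0048), against a background of 19.4% and 17.4%. RBCK1 (0.98, SE 0.20) and RNF31 (1.06, SE 0.31), subunits of the linear ubiquitin ligase that assists IKK activation, were higher. TNIP3, another partner of the TNFAIP3 protein, was called higher too, but was detected on 3 arrays labelled SLAMF1 shRNA and 1 control array, so its difference (0.89, SE 0.25) is measured against levels near background. RNF31 and TNIP3 each lost the call in 8 alternatives, RNF31 without SLAMF1 shRNA replicate 3 or any 1 control array and TNIP3 without control replicate 2 or 3. RBCK1 lost it without control replicate 3. TRAF3IP2 (-1.71, SE 0.21), an adaptor of interleukin receptors, MALT1 (-1.54, SE 0.17), the protease that links the B cell receptor to NF-kappaB, and MYD88 (-0.73, SE 0.18), the adaptor of Toll-like receptors, were lower. MYD88 did not pass without SLAMF1 shRNA replicate 1 or 3 or control replicate 2 or 3. TRAF3IP2 lies on chromosome 6 and MALT1 on chromosome 18, and neither was compared with its chromosomal neighbours.

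Among 13 further TNF ligands 5 were tested and 1 was called. That was TNFSF10, the death ligand TRAIL (1.20, SE 0.29, adjusted p = 0.0208), a call lost in 7 alternatives, among them those without any 1 control array. Without SLAMF1 shRNA replicate 2 this list had 1 higher and 2 lower, the lower ones being TNFSF13B (-0.55, adjusted p = 0.0186) and TNFSF14 (-0.59, adjusted p = 0.0427), named after their values were seen. Of 20 further TNF receptors 10 were tested, 2 were higher and 2 lower, the same counts as without SLAMF1 shRNA replicate 2. TNFRSF17, the plasma cell receptor BCMA, was higher (1.12, SE 0.18) and so was TNFRSF9 (0.84, SE 0.20), the receptor for TNFSF9. TNFRSF19 (-2.13, SE 0.21) and TNFRSF4 (-0.94, SE 0.23), a costimulatory receptor, were lower. TNFRSF9 did not pass without SLAMF1 shRNA replicate 1 or 3 or control replicate 1 or 3, and TNFRSF4 without SLAMF1 shRNA replicate 3 or any 1 control array. TNFRSF9 was also lost with median centring (0.68, adjusted p = 0.174) and with a block for replicate number (0.84, adjusted p = 0.0586). TNFRSF4, detected on 2 of the arrays labelled SLAMF1 shRNA, was lost with the mean of its probes (-0.43, adjusted p = 0.143).

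Further target genes of NF-kappaB were also divided. Of 31 listed, 26 were tested, 6 were higher and 5 lower, with a median log2 fold change of 0.22. Without SLAMF1 shRNA replicate 2 there were 9 higher and 7 lower, with a median of 0.09. The chemokine gene CCL22 (5.54, SE 0.35), the adhesion receptor gene CD44 (1.46, SE 0.17) and CFLAR (1.37, SE 0.29), which blocks death receptor signalling, were the members of that list with the largest rise. Among those that fell were the chemokine gene CCL3 (-2.59, SE 0.42) and KYNU (-1.75, SE 0.16), an enzyme of tryptophan breakdown. KYNU read 4.79, 4.61 and 4.58 on the arrays labelled SLAMF1 shRNA, near the lowest levels of detected probes there (4.47, 4.59 and 4.47). The chemokine gene CXCL10 also fell (-2.94, SE 0.27), to levels near background, since it was detected on 1 array labelled SLAMF1 shRNA and on 3 control arrays. CCL3 shares sequence with near-identical copies, so its value is uncertain in that respect, and the CD44 call was lost with the mean of its probes (1.09, adjusted p = 0.0566). CFLAR did not pass without control replicate 1 or 3.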

How the data were processed

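Each of the 6 arrays had a signal intensity per probe, deposited without normalization. GenomeStudio is named in the submitters' processing notes, its version not given in the sources used here. Detection p-values were deposited beside them, per the file headers. A second deposited table of intensity matched the quantile-normalized signals (100% of values within 1%) and served as an alternative. Per the labels' protocols, RNA was amplified and biotin-labelled.

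The limma package (3.58.1, in R 4.3.3) was used for background correction (nec, offset 16), followed by log2 values and quantile normalization. Probes with a detection p-value under 0.05 on at least 3 arrays were kept (19073 of 47323 listed, 2 of them without values). Symbols came from the platform annotation, brought up to date through RefSeq (GRCh38.p14). The probe with the highest mean level stood for a gene, which gave 10832 genes. Groups were compared with lmFit and eBayes and Benjamini-Hochberg adjustment over all genes. Fold changes on this scale understate those of dim genes. The fit was tested on simulated data, with noise drawn independently for each gene and array. No simulated array stood apart from its companions, so this test does not cover such a case. Array mean signals of 208 to 294 and 3 arrays per group limit the precision.

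Members and lists were chosen with earlier results of these data known. Every member is accounted for. Values per array are given for members past the threshold, for the member with the largest change in each class and for members that a single array, probe or setting decides, the last chosen after their values were seen. Up to 3 genes per direction are named from the other lists. Gene neighbours follow the RefSeq order and were added after the data were seen. Alternatives changed the background correction, offset, normalization, table, filter, probe rule, variance model, array weights and replicate block, and left out each array. The main comparison did not treat same-numbered replicates as pairs, and the sample labels do not say whether they were.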

Additional observations from a re-analysis of the deposited data

How the results depend on the processing

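In 18 alternatives 0 of the 13 called members changed sign, and 6 (NFKBIZ, CHUK, TNF, LTA, TNFRSF14 and EBI3) passed the threshold in each that gave a value. The other 7 lost it in at least 1, as given beside their values. The members called higher, 5 as reported, numbered 3 when every array had to reach a detection p of 0.01, and 13 with array weights, whose estimation stopped before it converged. Those called lower, 8 as reported, numbered 7 to 11 in the alternatives that kept all arrays. All genes higher, 1400 as reported, were 815 with median centring and 3421 with array weights. All genes lower, 1269 as reported, were 830 with the stricter detection p and 3224 with array weights. Leaving out 1 array gave 2 to 7 members higher, 4 to 9 lower, 675 to 2103 genes higher and 622 to 1889 lower, the lowest counts without control replicate 3 and the highest without SLAMF1 shRNA replicate 2. Members higher numbered 3 without control replicate 1 or 2. Median centring put the median of all genes at -0.14 and the share of higher calls at 42.5%, against 52.5% as reported. The sign of 6 uncalled members turned. NFKB2 (-0.13), IKBKB (-0.022), TRAF1 (-0.15) and TRAF6 (-0.025) did so with median centring, and TNIP2 (-0.075) and BIRC2 (-0.015) with array weights. With 1 array left out, values ran from -0.050 to 0.31 for NFKB2, -0.15 to 0.54 for TNIP2, -0.042 to 0.44 for TRAF1 and -0.18 to 0.41 for TRAF6. The cause was not tested. With the replicate number as a block 1107 genes were higher, and the members called numbered 4 higher and 7 lower, with CD83 and TNFAIP3 lost. Deviations of same-numbered arrays correlated at -0.205, -0.14 and 0.21. With 3 arrays per group these values cannot show whether samples of the same number were prepared as pairs. Signal near background limits TNFRSF13C, TNFRSF1A and TNFRSF8.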
